A study of Drosophila melanogaster with 2 samples.

Results

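The mitochondrial ribosomal protein (mRp) genes were examined in a ChIP-seq experiment on the transcription factor Bab2 (bric-à-brac 2) in whole Drosophila melanogaster embryos. They were taken by name alone, as every protein-coding gene whose symbol begins with mRpL or mRpS. The rule gave 73 of the 13945 protein-coding genes on the main chromosome arms (dm6), of which 47 encode proteins of the large ribosomal subunit (mRpL) and 26 proteins of the small subunit (mRpS). The 2 libraries, biological replicates 2 and 3, form 1 group, come from separate biosamples, and hold chromatin of mixed-sex embryos 0 to 24 h old from a transgenic line that carries Bab2 with GFP at its C-terminus. GFP was the target of the precipitating antibody, and sonicated fragments of 200 to 800 bp were sequenced. With whole embryos as the source, a peak is an average over all cell types and over the whole of embryogenesis. No other genotype, time or treatment was compared, and a control experiment that the labels name as possible was not analysed here.

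Mitochondria make the core membrane subunits of the respiratory chain on their own ribosomes. The ribosomal RNAs come from the mitochondrial genome, but every protein of these ribosomes is encoded in the nucleus, made in the cytoplasm and imported. The genes are short, scattered over the chromosomes, and are expressed in nearly all tissues. In the compact fly genome many genes start back to back with an unrelated gene, so that a single short stretch of DNA lies upstream of both. Bab2 is a BTB-domain protein that binds A/T-rich DNA and is known for its part in leg segmentation, ovary development and abdominal pigmentation.

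The sequences under the summits, the single bases at which the signal of each peak is highest, are shown first for 6 mRp genes of high signal, because they show the bases at and around which Bab2 signal was highest. They are printed on the strand of the mRp gene, 5′ to 3′, from the release 6 assembly (dm6, RefSeq copy), and lie outside annotated UTRs. For mRpS10 (chr3R:15229409-15229664, plus strand), mRpS2 (chr2L:4850420-4850640, minus strand), mRpL24 (chr2L:4945362-4945578, minus strand) and mRpL32 (chr3R:31252609-31252871, plus strand) the run covers all bases between the transcription start site (TSS) of the neighbour on the left and that of the mRp gene on the right. For mRpS23 (chr2L:13835411-13835511, minus strand) and mRpL4 (chr2L:16329204-16329304, minus strand) it covers the summit and 50 bases on either side. The summit is base 122 of the mRpS10 run, base 35 for mRpS2, base 106 for mRpL24 and base 158 for mRpL32. Capitals mark 10 short promoter words on either strand, among them the E-box word CAGCTG, the DNA replication element (DRE) word TATCGATA, the word CGATA and the A/T word TAATAA.
mRpS23: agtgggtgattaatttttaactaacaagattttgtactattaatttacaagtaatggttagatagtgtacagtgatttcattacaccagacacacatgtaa
mRpS10: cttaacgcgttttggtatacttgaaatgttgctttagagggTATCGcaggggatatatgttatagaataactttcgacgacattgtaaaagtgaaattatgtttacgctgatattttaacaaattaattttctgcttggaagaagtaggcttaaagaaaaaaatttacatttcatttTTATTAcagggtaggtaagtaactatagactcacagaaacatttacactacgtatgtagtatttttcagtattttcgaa
mRpS2: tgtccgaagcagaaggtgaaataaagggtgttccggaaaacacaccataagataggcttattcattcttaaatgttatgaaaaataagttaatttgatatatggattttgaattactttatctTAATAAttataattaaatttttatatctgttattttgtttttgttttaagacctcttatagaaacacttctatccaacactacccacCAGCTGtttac
mRpL24: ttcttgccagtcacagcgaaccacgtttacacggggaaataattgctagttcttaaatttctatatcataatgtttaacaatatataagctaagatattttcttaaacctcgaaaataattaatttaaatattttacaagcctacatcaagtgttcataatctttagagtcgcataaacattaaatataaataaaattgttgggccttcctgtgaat
mRpL32: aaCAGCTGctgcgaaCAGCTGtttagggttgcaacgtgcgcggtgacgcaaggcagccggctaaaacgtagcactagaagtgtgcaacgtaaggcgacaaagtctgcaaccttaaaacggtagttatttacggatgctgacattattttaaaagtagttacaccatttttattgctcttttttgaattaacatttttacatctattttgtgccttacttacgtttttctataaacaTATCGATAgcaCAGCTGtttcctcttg
mRpL4: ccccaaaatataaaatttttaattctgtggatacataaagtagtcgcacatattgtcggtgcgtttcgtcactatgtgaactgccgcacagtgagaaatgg

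Of these 6 runs, mRpL32 held 3 copies of CAGCTG, at bases 3 to 8 and 16 to 21 beside its neighbour's TSS and at bases 248 to 253 beside its own, and 1 full DRE at bases 237 to 244. The mRpS2 run held 1 CAGCTG, at bases 211 to 216 next to its own TSS, far from the summit at base 35. The mRpS10 run held TATCG, the reverse complement of CGATA, at bases 42 to 46 and the reverse complement of that A/T word at bases 178 to 183. The GC content ran from 28.1 to 30.1% in mRpS2, mRpL24, mRpS23 and mRpS10, and was 39.9% in mRpL32 and 39.6% in mRpL4. The runs of mRpS23, mRpL24 and mRpL4 held none of the capitalised words. For contrast, the next pair comes from 2 mRp genes with a divergent neighbour but no Bab2 peak in any list, as 50 bases on either side of the median summit position of the mRp genes (-122 bp from the TSS), for mRpL22 (chrX:16783761-16783861, plus strand) and mRpL30 (chrX:4647699-4647799, plus strand). Their GC content was 20.8% in mRpL22 and 29.7% in mRpL30, and mRpL22 carries the A/T word TAATAA at bases 24 to 29 and again at bases 74 to 79.
mRpL22: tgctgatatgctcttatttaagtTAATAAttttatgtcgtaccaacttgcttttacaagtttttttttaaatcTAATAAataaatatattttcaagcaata
mRpL30: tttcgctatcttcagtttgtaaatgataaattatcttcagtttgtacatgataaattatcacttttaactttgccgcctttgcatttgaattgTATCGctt

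Bab2 peaks stood at the starts of 37.0% of the mRp genes. A summit of the optimal list, the 4720 peaks that passed the authors' reproducibility procedure, lay within 500 bp of a TSS at 27 of 73 mRp genes (Clopper-Pearson 95% interval 26.0 to 49.1%), against 20.1% of all protein-coding genes, mRp genes included. The share was 38.3% for the large subunit (18 of 47) and 34.6% for the small subunit (9 of 26), each share lying inside the interval of the other (24.5 to 53.6% for mRpL and 17.2 to 55.7% for mRpS). Members numbered up to L36 or S21, the numbers of the bacterial ribosomal protein families, had a summit at 15 of 42 (35.7%), and members with higher numbers, most of them proteins particular to mitochondrial ribosomes, at 12 of 31 (38.7%). These intervals cover counting error only, and no test compares the genes with others, since genes that share a summit are not independent.

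The 4 members with the highest signal ranked among the strongest peaks of the whole list, and they belong to both subunits. mRpL41 (FBgn0034001; peak at chr2R:15217572-15217947), of the large subunit, had the authors' signal per peak of 616 in replicate 2 and 909.8 in replicate 3, and 1519 in the optimal list, where it ranked 10. mRpS23 (FBgn0260407; chr2L:13835271-13835662), a small subunit protein, had 655 and 817, and 1475 in the optimal list at rank 13. Both ranked 14 or better in each replicate's own list.

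mRpS10 (FBgn0038307; chr3R:15229337-15229725), a protein of the small subunit head that bacteria also have, had 544 and 776 in replicates 2 and 3 and 1327 in the optimal list at rank 15. mRpL23 (FBgn0035335; chr3L:2373427-2373807), whose bacterial counterpart sits at the exit of the tunnel through which the new protein leaves, had 389 and 613, and 997 at rank 38. A wide gap followed: the fifth member, mRpL34, had 146 and 165, and 312 at rank 501. The plot of signals by replicate shows the 4 genes apart from the other 23 in each library.

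The next members were 7 with signals between 148 and 244 in the optimal list. mRpS2 had signals of 116 in replicate 2 and 123 in replicate 3, mRpL24 had 76.8 and 107, and mRpL32 had 83.7 and 91.6. mRpL4, whose bacterial counterpart lines the exit tunnel, had 73.6 and 106, and mRpL18, whose counterpart binds 5S ribosomal RNA, had 69.3 and 95.1. mRpL11, counterpart of a protein of the site where elongation factors act, had 65.0 and 94.6, and mRpL47 had 51.7 and 89.5. In all 7 the signal was higher in replicate 3.

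The remaining 15 members with a summit were mRpL37, mRpS7, mRpL21, mRpL53, mRpL51, mRpS24, mRpS6, mRpL16, mRpL20, mRpS26, mRpL50, mRpL54, mRpS18A, mRpL42 and mRpS22, with optimal signals between 76.5 and 147. The last of them, mRpS22 (44.9 and 33.8 in replicates 2 and 3), stood just above 76.1, the lowest signal in the list. Over the 27 genes the median signal was 145, against 135 over all 2190 optimal peaks at a promoter, and 4 of the 27 (14.8%) were within the 10% of the list with the highest signal, against 13.0% of promoter peaks. The typical mRp peak was thus of ordinary strength for a promoter, with 4 exceptions. The 27 genes had 27 different peaks, and no summit lay at the starts of 2 mRp genes; mRpL37 had a second optimal summit, of signal 95.2, at -266 bp from its TSS.

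**Figure D1:**
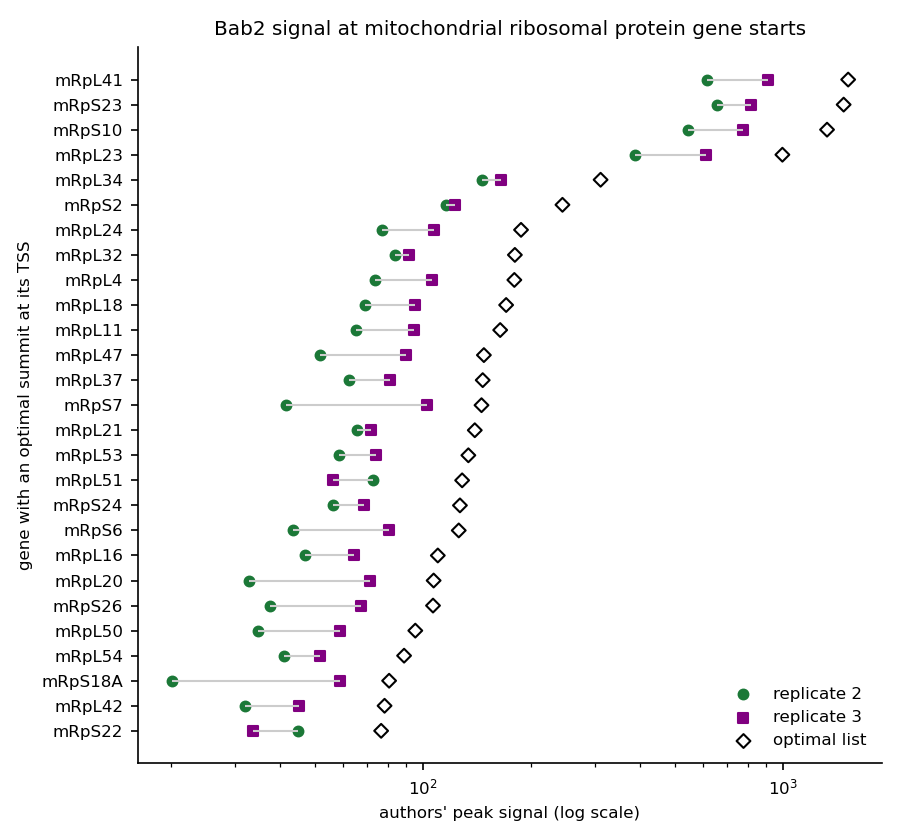
The authors' peak signal (log axis) at the 27 mRp genes whose start sites have an optimal summit in reach (500 bp), in replicate 2 (circles), replicate 3 (squares) and the optimal list (diamonds), 1 gene a row. The top 4 genes sit between 389 and 909.8 in the replicates, above all the other genes, and replicate 3 is the higher library in 25 of 27 rows.

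The libraries placed most of the 27 peaks at nearly the same bases. Between the replicates, the strongest summits lay furthest apart at mRpS22 (144 bp), mRpS18A (132 bp) and mRpS6 (61 bp), and within 50 bp at the others. The replicate 2 summit lay within 50 bp of the optimal summit at 25 of the 27 genes (at most 110 bp away) and the replicate 3 summit at 26 (at most 142 bp). Closeness to the optimal summit is partly built in, since that list derives from both replicates. Across the 27 genes the signals of the libraries had a Spearman's rho of 0.812, given as a description, since the genes share both libraries and were kept in the optimal list for agreement between them. Replicate 3 gave the higher signal at 25 genes, with a median ratio to replicate 2 of 1.39, against 1.296 over the 2783 genes of the genome with an optimal summit and a peak in both lists. The exceptions were mRpL51 (72.8 in replicate 2 and 56.4 in replicate 3) and mRpS22. The largest ratio, 2.94, belonged to mRpS18A, with 20.02 in replicate 2 and 58.9 in replicate 3. Its replicate 2 peak had a −log10 q of 0.38, so mRpS18A alone of the 27 missed a limit of 1.3 in 1 of the libraries.

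The relaxed lists, which keep weak peaks and background on purpose, held summits at most of the other mRp genes too. In the list from pooled replicates 56 of 73 mRp genes (76.7%) had a summit at a TSS, against 47% of all genes. In replicate 2 it was 52 (71.2%), against 48.3%, and in replicate 3 it was 54 (74.0%), against 47.4%. With a −log10 q of at least 1.3 required in both replicates, 27 mRp genes (37.0%) remained, against 21.7% of all genes; they were 26 of the 27 above and mRpL17.

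The 46 members without an optimal summit had pooled signals of at most 72.4 or no pooled peak. The 27 had the same signals in the optimal and pooled lists, and the lowest optimal signal was 76.1. The weakness of the 46 thus follows from how the list was cut. The 6 nearest to the limit by signal in the pooled list were mRpS31 (72.4), mRpL35 (72.1), mRpS11 (70.9), mRpL17 (69.5), mRpL3 (67.0) and mRpL28 (60.1), all with a divergent neighbour. In replicates 2 and 3 they had signals of 28.0 and 45.97 for mRpS31, 19.3 and 48.7 for mRpL35, and 26.1 and 39.8 for mRpS11. mRpL17 had 33.7 and 31.6, mRpL3, whose bacterial counterpart reaches the peptidyl transferase centre, had 26.5 and 35.7, and mRpL28 had 23.3 and 35.2. These values overlap with those of mRpS22, mRpL42 and mRpS18A inside the limit. No summit in any of the 4 lists stood at 13 of the 73 members (17.8%): mRpL14, mRpL15, mRpL22, mRpL30, mRpL38, mRpL39, mRpL40, mRpL45, mRpL46, mRpS9, mRpS33, mRpS34 and mRpS35. The same share over all protein-coding genes was not computed, so this count is not read as high or low. Of these, mRpL22 lines the exit tunnel and mRpS9 reaches the decoding region in the bacterial ribosome.

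**Figure D2:**
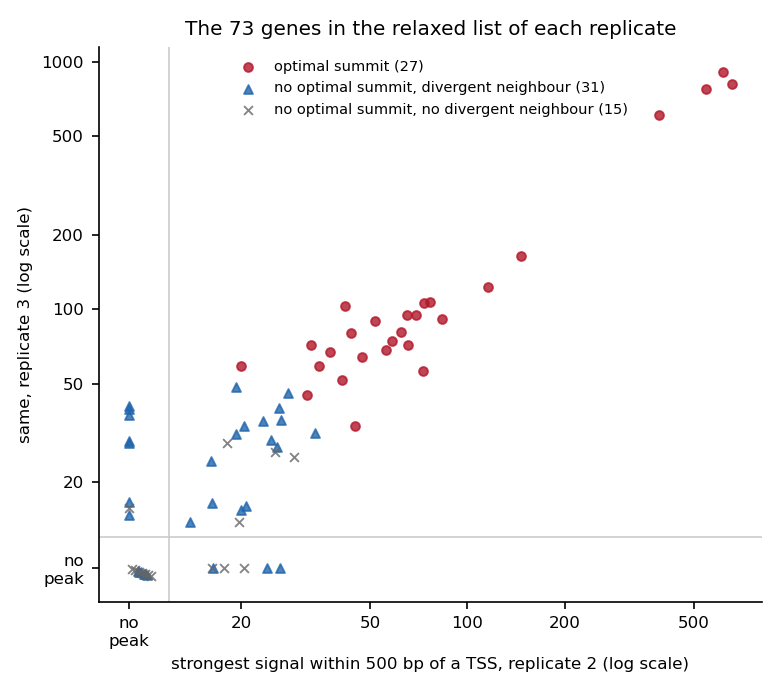
The strongest signal within 500 bp of a TSS in the relaxed list of replicate 2 (x axis) and of replicate 3 (y axis), both log axes, for all 73 mRp genes; genes with no peak in a list are drawn in the margin marked "no peak", those absent from both slightly spread. Circles are the 27 genes with an optimal summit, triangles the 31 without that have a divergent neighbour, and crosses the 15 without either.

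All 27 mRp genes with an optimal summit had a divergent neighbour, counted where a protein-coding gene on the other strand, pointing away, had its TSS within 1000 bp upstream. Among all protein-coding genes with an optimal summit, 1834 of 2797 had one, so most such genes share this arrangement. With a limit of 500 bp, chosen after seeing the data, 25 of the 27 had such a neighbour and mRpL41, the strongest member, and mRpL4 did not. A divergent neighbour within 1000 bp was present at 58 of 73 mRp genes (79.5%), against 36.2% of all protein-coding genes. Of these 58, 27 had an optimal summit (46.6%, interval 33.3 to 60.1%), against 36.3% of all genes with a divergent neighbour, a share inside that interval. Of the 14 members with no other TSS nearby, 0 had a summit (3 counts would make 21.4%, and the exact interval reaches 23.2%), against 10.5% of all such genes. The last member, mRpL13, starts at the same base as another gene on the same strand and had no optimal summit. Among all genes with another TSS within 500 bp but no divergent neighbour, 16.8% had one.

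Among weaker peaks the split by neighbourhood was less complete. In the list from pooled replicates, 48 of 58 mRp genes with a divergent neighbour had a summit (82.8%), against 69.2% of all such genes, and 7 of 14 with no TSS nearby had one (50%), against 33.7%. mRpL9 was the strongest of these 7, with a pooled signal of 57.2 (29.2 in replicate 2 and 25.2 in replicate 3). The 13 members without any summit were 6 of the 58 with a divergent neighbour (10.3%) and 7 of the 14 with no TSS nearby (50%). No matching shares over all genes were computed.

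**Figure D3:**
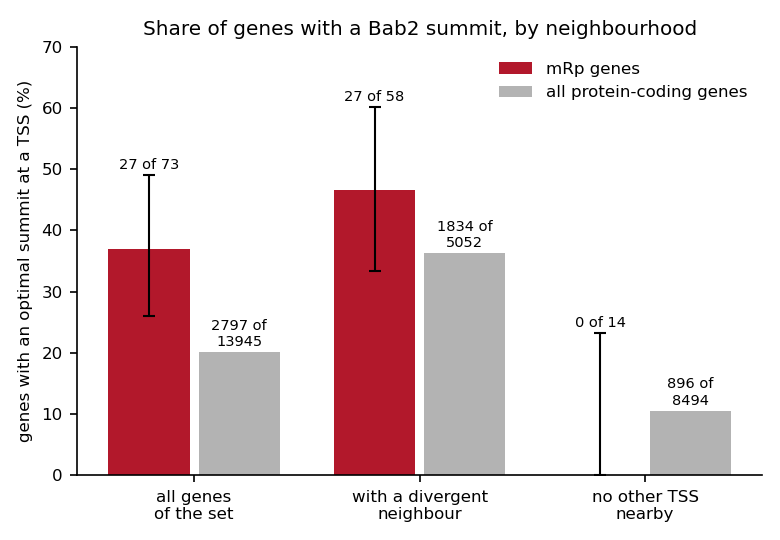
Share of genes (%, axis from 0) that have an optimal summit 500 bp or less from a TSS, for mRp genes (dark bars, Clopper-Pearson 95% intervals for counting error) and all protein-coding genes (grey bars), over each whole set, those with a divergent neighbour and those with no other TSS nearby. The mRp bars stand at 37.0%, 46.6% and 0%, beside grey bars of 20.1%, 36.3% and 10.5%.

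The median distance between the divergent start sites was much the same in members with and without a peak, but short gaps were more common in those without. The median gap was 279 bp in the 27 divergent mRp genes with an optimal summit and 285 bp in the 31 without, 283 bp over all 58, against 298 bp for all 5052 divergent genes. The quartiles were 153 and 410.5 bp with an optimal summit and 56 and 446.5 bp without. With a gap above 100 bp and up to 500 bp, 20 of 35 mRp genes had an optimal summit (57.1%), against 43.0% of all divergent genes with such a gap. With a gap of up to 100 bp it was 5 of 18 (27.8%), against 33.5%, and above 500 bp it was 2 of 5 (40%), against 22.2%. The intervals of the 3 mRp shares overlap, though the 57.1% and the 27.8% each lie outside the interval of the other, and no test was run.

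Nearly every summit at an mRp gene was a summit at its neighbour too. At 25 of the 27 genes (92.6%) the summit also lay within 500 bp of a TSS of another gene, against 59.9% of all genes with an optimal summit. That wider set includes genes with no other TSS nearby, whereas all 27 members have a divergent neighbour. Over whole sets it was 25 of 73 mRp genes, against 12% of all protein-coding genes. Short gaps make a shared summit likely by construction, and the exceptions were the members with the widest gaps: mRpL41, 762 bp from CG8079, and mRpL4, 793 bp from CG4440. The summit was nearer to the mRp TSS than to any other at 12 genes (16.4% of the 73), against 14.7% of all protein-coding genes. Among those with a summit this was 12 of 27 (44.4%, interval 25.5 to 64.7%), against 59.8% of all divergent genes with a summit. Peak lists hold no expression, so which gene of a pair a peak bears on was not tested.

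The neighbours named by shared summits had varied roles. CenG1A, which encodes a regulator of small GTPases, shared the mRpS23 summit, which lay at -389 bp from mRpS23 and 103 bp from CenG1A. Art3, a protein arginine methyltransferase gene, shared that of mRpS10, which lay at -135 bp from mRpS10 and 122 bp from Art3. Genes whose products act in mitochondria were Taz (tafazzin, with mRpL18), which remodels cardiolipin, HtrA2 (with mRpL11), a protease, and qless (with mRpL32), which acts in ubiquinone synthesis. Cell cycle and signalling genes were Cdk1 (with mRpS7), Apc2 (mRpS24) and Cip4 (mRpS6), and chromatin genes were trr (mRpL16), rept (mRpL21) and Kdm3 with CG8176 (mRpL47).

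Further pairs were mRpL23 with CG9004, mRpL34 with Dg (dystroglycan), mRpS2 with Mon1 (endosome maturation) and mRpL24 with betaggt-I (protein prenylation). mRpL53 shared its summit with AGO1, which acts in the microRNA pathway, and with CG33155. Next came mRpL51 with Uba4, mRpL20 with Icmt, mRpS26 with CG13698, mRpL50 with mei-P22 (meiotic recombination) and mRpL54 with CG15653. The last were mRpS18A with CG31460, mRpL42 with PIG-N (glycolipid anchors) and mRpS22 with CG5003.

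Summits mostly fell upstream of the mRp genes, at positions near those of all genes with an optimal summit. The median position was -122 bp from the nearest TSS of the gene (quartiles -192.5 and -89 bp, negative being upstream), against -124 bp for all genes with an optimal summit. At 25 of the 27 genes (92.6%) it was upstream, against 87.2% of all genes, and the exceptions were mRpL23 (44 bp downstream) and mRpL42 (38 bp downstream). The summit lay between both start sites at 21 genes and beyond the neighbour's TSS at 4, mRpL18, mRpL11, mRpL51 and mRpS18A, each inside a 5′ UTR of the neighbour. By annotation 20 summits were intergenic, 6 were in a 5′ UTR and 1, at mRpL53, was in an intron of AGO1. The counts in the gap and by annotation were not computed for other genes, so they are not read as particular to mRp genes.

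**Figure D4:**
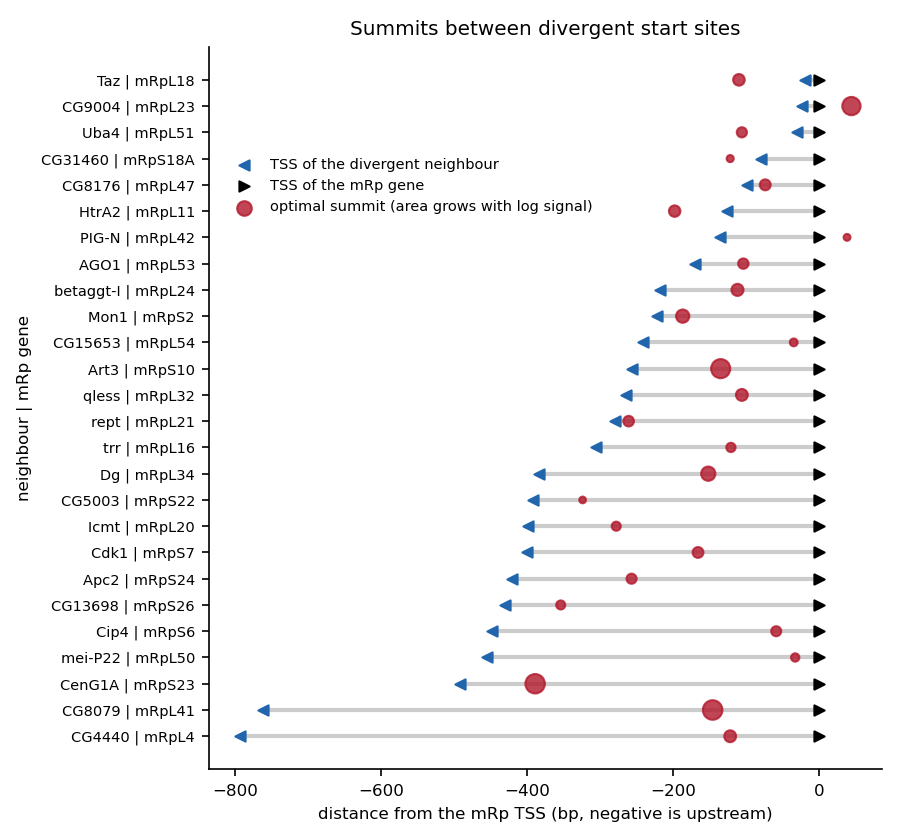
Position of each optimal summit (circles, area growing with the log of the signal) relative to the nearest TSS of the mRp gene (right triangles at 0) and to the TSS of its divergent neighbour (left triangles), in bp with negative values upstream, for 26 pairs, 1 a row in order of the gap. Summits lie in the gap in 20 of 26 rows, and the 3 smallest gaps have theirs outside it.

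On the X chromosome, 1 of 11 mRp genes had an optimal summit (9.09%, interval 0.230 to 41.3%), against 18.6% of all X genes. On the autosomes it was 26 of 62 (41.9%, interval 29.5 to 55.2%), against 20.3%. The single X member with a summit was mRpL16 (signals 47.1 and 64.2 in replicates 2 and 3), and 9 of the 11 have a divergent neighbour. The intervals of the X and autosomal shares overlap, though each share lies outside the interval of the other, and no test was run.

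The E-box word CAGCTG stood at the start sites of 47.9% of mRp genes, in those with a Bab2 summit and in those without. In windows reaching 50 bp to either side of the most upstream TSS, the word stood at 12 of the 27 mRp genes with an optimal summit (44.4%) and at 23 of the 46 without (50%), against 9.34% of all genes and 13% of divergent genes. It was found at 23 mRpL and 12 mRpS genes, in 36 copies whose median position was about 12 bp downstream of the TSS. Of the 35 mRp genes with the word, 12 had an optimal summit (34.3%), and of the 38 without it, 15 had one (39.5%), so the share was lower with the word. Among all genes it was higher with the word, at 30.2% with and 19% without, and among divergent genes it was 41.6% with and 35.5% without. None of these differences was tested. In windows of equal length centred on the summits it was present at 2 of 27 (7.41%), against 5.92% of the other 2163 promoter summits.

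Other core promoter words were searched on both strands in the same windows. The DRE word TATCGATA, known from genes of growth and replication, stood at the TSS of 5 of 27 mRp genes with a summit (18.5%) and 9 of 46 without (19.6%), against 5.56% of all genes and 9.74% of divergent genes. At the 27 summits themselves it was absent (3 counts would make 11.1%), against 4.21% of other promoter summits. The shorter word ATCGAT inside it and the shorter word CGATA were found at 25.9% and 40.7% of mRp start sites with a summit and 34.8% and 50% of those without, against 13.1% and 25.8% of all genes and 20.3% and 35.6% of divergent genes. These counts overlap, because each DRE contains both words.

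A pair of words differed between mRp genes with and without a summit. The motif 1 core GGTCACAC stood at the TSS of 0 of the 27 with a summit and 8 of the 46 without (17.4%), against 5.59% of all genes and 8.99% of divergent genes; the 8 were mRpL48, mRpL27, mRpL13, mRpS16, mRpS21, mRpL55, mRpS30 and mRpL22. The initiator word TCAGT was the reverse, at 8 of 27 (29.6%) and 1 of 46 (2.17%, mRpS9), against 31% of all genes and 22.9% of divergent genes. These contrasts were the most unequal of 12 words examined and were not tested. The other E-box word CACGTG stood at 1 of 27 mRp start sites with a summit (3.70%) and 1 of 46 without, against 1.98% of all genes. The NRF1 word TGCGCA stood at 2 of 27 (7.41%) and 1 of 46, against 2.61%, counts too small to compare. The GAGA word GAGAG stood at 7.41%, against 11.5%, and the TATA box word TATAAA at 14.8%, against 17.0%.

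**Figure D5:**
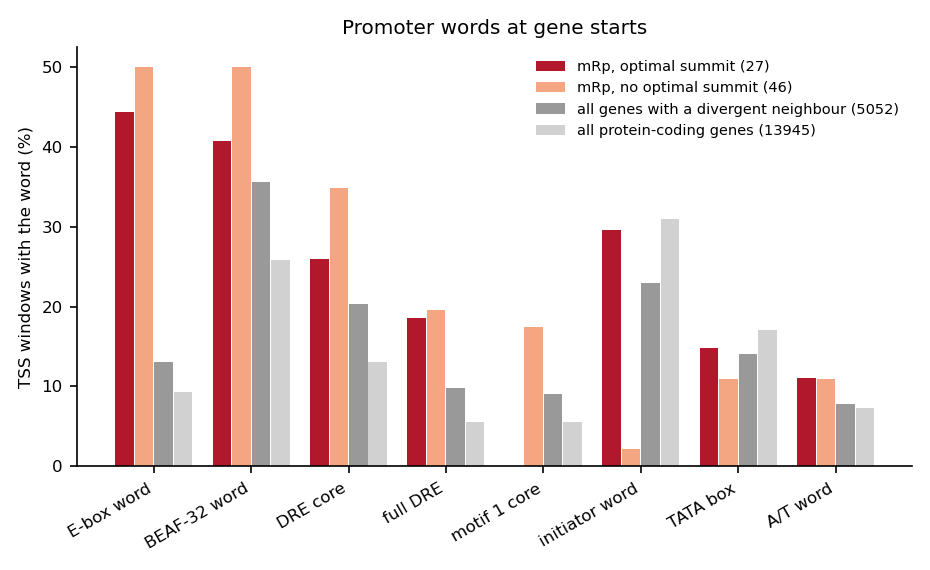
Percent of windows, 50 bp to either side of the most upstream TSS, that hold each of 8 promoter words, for mRp genes with an optimal summit, mRp genes without, all genes with a divergent neighbour and all protein-coding genes, from left to right in each cluster of bars (axis from 0). The E-box word stands at 44.4% and 50% in the mRp sets, against 13% and 9.34% in the wider sets.

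The bases upstream of mRp genes were A/T-rich whether or not they had a peak. At the 27 summits the median GC content, over 50 bp on either side, was 30.7%, against 35.6% at other promoter summits. In windows centred at -125 bp from the TSS, it was 25.7% in divergent mRp genes with a summit, 29.7% in those without and 24.8% in the 15 mRp genes that lack a divergent neighbour. Other divergent genes had 29.7% there with an optimal summit and 33.7% without. The differences depend on the position: at -150 bp the medians were 29.7%, 30.7% and 26.7% in these mRp sets, against 29.7% and 33.7% in other divergent genes. In windows centred on the TSS they were 38.6%, 45.5% and 40.6% in the mRp sets. Other divergent genes went the other way there, at 43.6% with a summit and 41.6% without. None of these differences in GC content was tested. The A/T word TAATAA and the A/T word TATTAT each stood at 4 of 27 mRp summits (14.8%), against 16.5% and 14.5% of other promoter summits.

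Other genes of mitochondrial gene expression had peaks at a share near that of all genes. In a list of 42 matched factors for mitochondrial transcription, RNA processing, translation and ribosome assembly, with bonsai and tko, 6 (14.3%, interval 5.43 to 28.5%) had an optimal summit, against 20.1% of all genes. PNPase, which encodes an RNA-degrading enzyme of mitochondria, had the highest signal, 745 in replicate 2, 902 in replicate 3 and 1642 in the optimal list. By role, 2 of 8 genes of RNA processing, 2 of 8 translation factors, 1 of 7 transcription genes, 1 of 15 tRNA synthetases and 0 of 2 assembly genes had a summit. The others were ArgRS-m (136 in the optimal list), a tRNA synthetase, RNaseZ (124), which trims tRNA ends, mTerf5 (110.1), a transcription factor of the mitochondrial genome, and the translation factors mEFTu1 (82.0) and mIF2 (76.8). bonsai and tko encode small subunit proteins of the mitochondrial ribosome under names outside the rule, and neither had an optimal summit: bonsai was in neither replicate list, and tko had 15.3 and 32.2. Unlike any mRp gene with a summit, mEFTu1 and mIF2 have no divergent neighbour.

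Families close in function had shares of their own. Among cytoplasmic ribosomal protein genes, matched by symbol with their paralogues, 55 of 93 (59.1%, interval 48.5 to 69.2%) had an optimal summit, and 60.2% have a divergent neighbour. Among oxidative phosphorylation genes, also matched by symbol, it was 21 of 88 (23.9%, interval 15.4 to 34.1%), and 50% have such a neighbour. That list includes paralogues of the subunit genes, such as COX4L, COX7AL and SdhBL, and the assembly factor Sdhaf3. None of these had an optimal summit, so the share would be higher without them. Both intervals overlap that of the mRp genes (26.0 to 49.1%), the cytoplasmic one only from 48.5 to 49.1%. With the lists as matched, paralogues included, each family's share lies outside the mRp interval, and the mRp share of 37.0% lies outside both of theirs. Overlap of intervals does not show that shares are alike, and no test was run. The interval of the oxidative phosphorylation genes holds the 20.1% of all genes. The summit was nearest to the gene's own TSS at 12 of 27 mRp genes, 46 of 55 cytoplasmic ribosomal protein genes and 13 of 21 oxidative phosphorylation genes, with intervals of 25.5 to 64.7%, 71.2 to 92.2% and 38.4 to 81.9%. Over all genes with an optimal summit it was 73.5%. The families differ in how many members have a divergent neighbour, so these shares are not compared further.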

How the data were processed

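For both libraries the authors deposited narrowPeak lists on dm6: a relaxed list per replicate (27372 and 25804 peaks), a relaxed list from pooled replicates (24109) and the optimal list (4720) of peaks that passed an irreproducible discovery rate (IDR) procedure, per the deposited README files. The same files say that relaxed lists were called against a control and hold background on purpose. The signal is the authors' deposited value per peak, of a scaling not given in the sources used here, and was used only to describe and rank. The −log10 (q-value) deposited by the authors served only for the limit of 1.3. Aligner, peak caller and read depth are not given in the sources used here, so precision per peak is unknown and was judged from the 2 replicates.

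Summits were placed within 500 bp of any TSS of the Ensembl 115 annotation (FlyBase 6.54), the strongest summit standing for a gene. Intervals are Clopper-Pearson at 95%, and beside a count of 0 stands the share that 3 counts would make. Computation used Python 3.11.15, numpy 2.4.6, pandas 2.3.3 and scipy 1.17.1, and was tested on simulated data. The members and lists were chosen with earlier results of these data known. Genes named are all with an optimal summit (full values for the 12 strongest), the 6 strongest without, all absent from every list, listed pathway genes with a summit, and bonsai and tko; 1 neighbouring gene is not reported here; mRpL9, mRpL13, the genes with the motif 1 core and mRpS9 for its initiator word were named after their values were seen. After swallow (swa) was dropped as unrelated, 51 pathway names remained, of which 5 were not matched and 4 named a gene already listed, leaving 42 genes; 4 names were matched through an older symbol. Alternatives were other windows, each replicate alone, a stricter list, peak overlap, the most upstream TSS and, chosen after seeing the data, a divergent limit of 500 bp.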

Additional observations from a re-analysis of the deposited data

How the results depend on the processing

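The count of mRp genes with an optimal summit, 27 as reported, was 21 with a TSS window of 250 bp, 28 with 1000 bp (mRpL33 gained), 28 without replicate 2 and 23 without replicate 3 (the strongest 4720 peaks of the other replicate). The window of 250 bp dropped mRpL20, mRpL21, mRpS22, mRpS23, mRpS24 and mRpS26, leaving 5 mRpS genes and a median summit position of -110 bp. Without replicate 3, mRpL20, mRpL42, mRpL50 and mRpS18A were lost; without replicate 2, mRpS22 was lost and mRpL35 and mRpS31 were gained. With the 2360 strongest optimal peaks, 17 mRp genes (23.3%), 4 mRpS genes, 15 shared summits and 7 summits nearest to the mRp TSS remained, all 17 with a divergent neighbour, against 1634 of all genes (11.7%). Without replicate 2 or 3, counts ran from 15 to 19 for mRpL, 8 to 9 for mRpS, 21 to 26 for shared summits, 10 to 13 for summits nearest to the mRp TSS, 2736 to 2809 for all genes and 23 to 28 for members with a divergent neighbour, and the median position from -131 to -123 bp. With a divergent limit of 500 bp, 25 of 53 members had a summit, so mRpL41 and mRpL4 then had one with no divergent neighbour. No paired analysis was possible because there is 1 group. Without read depth or an untagged control, a weak peak cannot be told apart from background, and absence from a list does not show absence of binding.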

Other observations

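The E-box word CAGCTG at the start site also differed among the nuclear gene families of the mitochondrion and the ribosome. It stood at 35 of 73 mRp genes (47.9%), 17 of 88 oxidative phosphorylation genes (19.3%) and 7 of 93 cytoplasmic ribosomal protein genes (7.53%), against 9.34% of all protein-coding genes. The lists of 88 and 93 genes were matched by symbol and include paralogues. Cytoplasmic ribosomal protein genes, with the lowest share of the word, had the highest share of optimal summits of the 3 families. Of the 13 members with no summit in any list, the word was at mRpS33, mRpS34, mRpS35, mRpL40, mRpL45 and mRpL46. It was absent from the others, mRpL14, mRpL15, mRpL22, mRpL30, mRpL38, mRpL39 and mRpS9. mRpL41, the member with the highest signal, had the word. These values are a description of the annotated start sites, with no test, and the positions depend on the annotation of the most upstream TSS.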
